A study of Mus musculus with 24 samples.

Results

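The mitotic genes studied here were 44 genes that build the spindle and kinetochore, guard the checkpoint, condense the chromosomes and divide the cell. They were chosen as a list of symbols, matched through GENCODE M1 to the Ensembl genes of the count table, and all 44 were found among its 37991 genes. All 44 also passed the filter on low counts, which 14918 genes passed with a CPM (the count scaled to library size) of 1 or more in 12 or more samples. Bulk mammary tissue of female mice was sequenced at 4 ages, with 3 PyMT and 3 FVB mice at each age. PyMT mice were F1 females that carried 1 copy of the MMTV-PyVT transgene, in which the MMTV promoter, active mainly in mammary epithelium, drives the middle T antigen of polyoma virus. Their fathers were transgenic males of the FVB/N strain and their mothers were FVB females. By stage, the PyMT samples were named hyperplasia (week 6), adenoma/MIN (week 8), early carcinoma (week 10) and late carcinoma (week 12). The controls were FVB females of matched age without the transgene, whose normal glands were taken untreated. Each PyMT group was therefore set against a gland that holds fat, muscle and vessels as well as epithelium, and in bulk RNA fewer dividing cells and less mitotic RNA per cell cannot be told apart.

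During mitosis the duplicated chromosomes are condensed, attached through kinetochores to spindle microtubules, and held back by the spindle assembly checkpoint until every chromosome is attached. The anaphase-promoting complex with its activator Cdc20 then releases the sister chromatids, and the central spindle and a contractile ring split the cell. Most of these genes are transcribed late in the cell cycle, in G2 and mitosis, so that their RNA is a common measure of proliferation in mammary tumors, and Mki67 encodes the antigen Ki-67 that pathologists stain for that purpose.

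Total counts ran from 6969375 to 13516601 per library. When genes were tallied by their count, 13 libraries (6 PyMT, 7 FVB) showed a peak lying between 8 and 25 counts. Counts are reads and not molecules, and the part of this peak in low counts and counts of 0 was not tested. The 2 libraries with the largest share of moderately expressed genes at a count of 0 were FVB week 10 replicate 3 (4.40%) and PyMT week 8 replicate 2 (2.87%), against at most 1.92% elsewhere. The 44 genes had no count of 0 in any PyMT library, where the lowest count was 43, and 28 counts of 0 in FVB libraries. Of these zeros, 15 fell in FVB week 10 replicate 3.

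The levels of the 44 genes were compared first. Values are normalized counts, that is, counts divided by DESeq2 size factors, and levels of different genes are given per kb of exon. In the PyMT samples the mean level ran from 22.5 normalized counts per kb for Cit, the citron kinase of the cleavage furrow, to 440 for Mki67, with a median of 86.8 over the genes. In the FVB samples it ran from 8.87 for Cit to 155 for Bub3, with a median of 26.8. Bub3, a checkpoint protein that binds Bub1 and Bub1b, ranked first in FVB and 5 in PyMT, and Mki67 ranked 3 in FVB and first in PyMT. Within the NDC80 complex, which links microtubules to kinetochores, the mean per kb of the 4 subunits differed by 2.31-fold in PyMT, from Spc25 (47.1) to Spc24 (109), and by 1.73-fold in FVB. Within condensin I, Smc4 had the highest and Ncapg the lowest level in both genotypes, with 278 and 50.1 per kb in PyMT and 119 and 13.1 in FVB.

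PyMT was then compared with FVB over the 4 weeks, with the mean of the 4 weekly differences as the measure. Of the 44 genes, 42 were higher in PyMT, 0 were lower, and 2, Bub3 and Pttg1, missed the fold change of 2 although their adjusted p was under 0.05. A gene was called when the quasi-likelihood test of edgeR, with Benjamini-Hochberg adjustment across all tested genes, gave an adjusted p under 0.05 and the fold change was above 2. Log2 differences from this test are written ± 1 standard error. Of all 14918 tested genes, 8.70% were called higher and 17.5% lower by that rule. The median log2 difference was 2.00 (4.01-fold) for the 44 genes and -0.03 for all tested genes. The mean difference was positive for every one of the 44 genes, and fold changes ran from 1.39 for Bub3 to 7.86 for Ndc80, with a fitted 12.9 for Trip13 that depends on a group at 0.

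**Figure D1:**
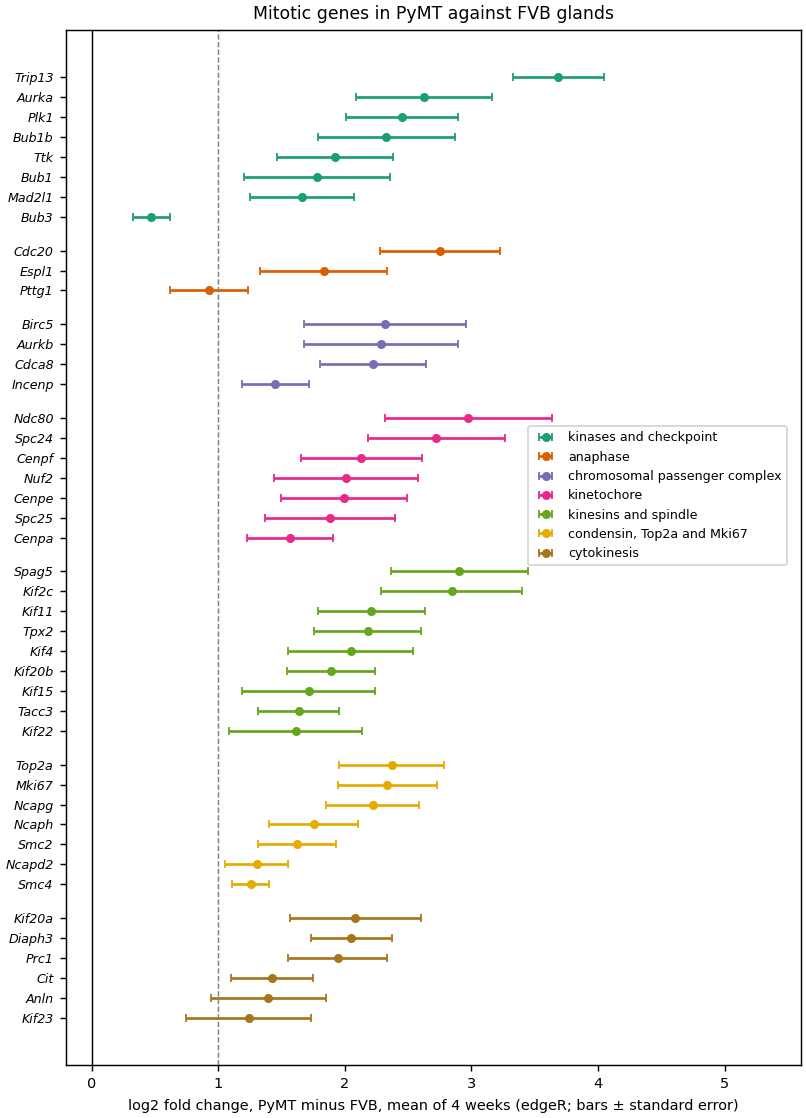
Log2 difference between PyMT and FVB, averaged over the 4 weeks, for each of the 44 genes (x axis; bars are ± 1 standard error of edgeR's fit), grouped by role; the dashed line marks a fold change of 2. The points of 42 genes lie beyond it, and Bub3 (0.47) and Pttg1 (0.93) lie below it.

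Among the 8 kinases and checkpoint genes, 7 were higher in PyMT, with a median log2 difference of 2.13. Plk1, the polo-like kinase that drives mitotic entry and spindle assembly (chr7:129302951-129313389 of mm9, + strand), ran from 133 to 423 normalized counts in the 12 PyMT libraries with a median of 283. In the 12 FVB libraries it ran from 0 to 164 with a median of 37.5. Of the FVB libraries 2 reached into the PyMT range, and the log2 difference was 2.45 ± 0.44 (edgeR adjusted p = 9.77e-05). Aurka, the centrosomal Aurora kinase, had a log2 difference of 2.63 ± 0.53 (edgeR adjusted p = 0.000329). Bub3 (chr7:138703905-138715412 of mm9, + strand) stood apart from the other 7, with 249 to 588 normalized counts in PyMT (median 403) and 191 to 390 in FVB (median 320). Of its 12 FVB libraries 11 lay within the PyMT range, and its log2 difference of 0.47 ± 0.15 (edgeR adjusted p = 0.0112) was the smallest of the 44.

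Trip13, an AAA+ ATPase that remodels the checkpoint protein Mad2 (chr13:74049910-74075215 of mm9, - strand), had the largest fitted log2 difference, 3.69 ± 0.36 (edgeR adjusted p = 7.19e-08). At week 10 its counts were 0 in all 3 FVB libraries, the only group of 3 libraries at 0 for any of the 44 genes. With 3 counts put in each of these libraries as a floor, the week 10 fold was at least 33.2-fold higher in PyMT, and the average log2 difference was at least 2.49, rank 7 of the 44 genes. The fitted values of Trip13 that use week 10 depend on the prior count of the fit and are no bounds. These bounds cover counting error only. All 3 FVB libraries of week 10 had a peak in the number of genes by count, at 12, 13 and 19 counts, and with 3 times these numbers put in place of 0, an alternative chosen after the data were seen, the week 10 fold was 2.12 and the average log2 difference 1.5. The median of the 44 genes was 2.00 with Trip13 at the floor of 3 counts as well.

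The 3 genes of anaphase differed among themselves. Cdc20, the activator of the anaphase-promoting complex (chr4:118105506-118109957 of mm9, - strand), ran from 354 to 867 normalized counts in PyMT (median 533) and from 0 to 243 in FVB (median 74.7). Every PyMT library lay above every FVB library, and the log2 difference was 2.75 ± 0.47 (edgeR adjusted p = 5.56e-05). Cdc20 shares exon bases with Elovl1 on the opposite strand, and the strand setting of the counting is not given in the sources used here. Pttg1, the securin that holds separase inactive, ran from 44.8 to 218 in PyMT (median 128) and from 10.8 to 160 in FVB (median 64.8), so that the genotypes overlapped. Its log2 difference was 0.93 ± 0.31 (edgeR adjusted p = 0.016), whereas Espl1, the separase itself, had 1.83 ± 0.50 (edgeR adjusted p = 0.00421). Pttg1 passed the fold of 2 or needed none in 10 of 33 alternatives.

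All 4 genes of the chromosomal passenger complex, which corrects faulty attachments, were higher in PyMT, with a median log2 difference of 2.25. The scaffold Incenp had the highest level per kb of the 4 and the smallest difference. It ran from 302 to 673 normalized counts in PyMT (median 465) and from 32.3 to 415 in FVB (median 155), a log2 difference of 1.45 ± 0.27 (edgeR adjusted p = 0.00011). The kinase Aurkb had 2.29 ± 0.61 (edgeR adjusted p = 0.00356), and survivin (Birc5) and borealin (Cdca8) had 2.31 and 2.22. For Birc5 and Cdca8, as for Cdc20 and the condensin subunit Smc2, every one of the 12 PyMT libraries lay above every one of the 12 FVB libraries, a pattern held by 4 of the 44 genes and by 4.67% of all tested genes.

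All 7 kinetochore genes were higher in PyMT, with a median log2 difference of 2.01. Ndc80, the subunit that gives the complex its name, had the largest difference, 2.98 ± 0.66 (edgeR adjusted p = 0.000745). It ran from 89.9 to 217 normalized counts in PyMT (median 144) and from 0 to 195 in FVB (median 11.3), with 4 FVB libraries at 0. Cenpa, the histone H3 variant that marks the centromere, had the highest level per kb of this group and the smallest difference, 1.57 ± 0.34 (edgeR adjusted p = 0.000609). It ran from 203 to 496 in PyMT (median 318) and from 25.2 to 371 in FVB (median 88.8).

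All 9 genes of the kinesins and spindle proteins were higher in PyMT, with a median log2 difference of 2.05. Kif11, the motor that pushes spindle poles apart (chr19:37450893-37496349 of mm9, + strand), ran from 526 to 969 normalized counts in PyMT (median 743) and from 12.1 to 626 in FVB (median 142). Only the highest FVB library reached the PyMT range, and the log2 difference was 2.21 ± 0.43 (edgeR adjusted p = 0.000187). Spag5, the spindle protein astrin, and Kif2c, a kinesin that shortens microtubules, had larger differences of 2.90 ± 0.54 (edgeR adjusted p = 0.000135) and 2.85 ± 0.56 (edgeR adjusted p = 0.000222).

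All 7 genes of condensin, Top2a and Mki67 were higher in PyMT, with a median log2 difference of 1.76. Mki67 (chr7:142881471-142908062 of mm9, - strand) ran from 3144 to 6016 normalized counts in PyMT (median 4236) and from 188 to 3283 in FVB (median 677). Top2a, the topoisomerase that untangles sister chromatids (chr11:98854257-98885503 of mm9, - strand), ran from 1771 to 3208 in PyMT (median 2363) and from 87.1 to 2071 in FVB (median 333). For both genes the highest FVB library alone reached into the PyMT range, and the log2 differences were 2.34 ± 0.39 (edgeR adjusted p = 4.08e-05) and 2.37 ± 0.41 (edgeR adjusted p = 6.37e-05). The condensin core subunit Smc4 had the smallest difference among these 7, 1.26, with the smallest standard error, 0.14 (adjusted p = 3.08e-07), and it ran from 1123 to 1709 in PyMT and from 348 to 1268 in FVB. Ncapd2, a regulatory subunit of condensin I, had 1.30 ± 0.25 (edgeR adjusted p = 0.000173).

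All 6 genes of cytokinesis were higher in PyMT, with a median log2 difference of 1.68. Anln, which bundles actin in the contractile ring, ran from 437 to 800 normalized counts in PyMT (median 577) and from 1.57 to 643 in FVB (median 194), a log2 difference of 1.40 ± 0.46 (edgeR adjusted p = 0.0145). Diaph3, a formin that builds actin filaments, had 2.05 ± 0.32 (edgeR adjusted p = 1.76e-05), with 203 to 618 normalized counts in PyMT and 25 to 284 in FVB. Kif23, a motor of the central spindle, had 1.24 ± 0.49 (edgeR adjusted p = 0.0409), the smallest difference among the 42 genes called. The Kif23 call was lost in 14 of 33 alternatives, all but 1 of which left out a single library, from either genotype and each of the weeks, with an adjusted p of up to 0.0694.

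**Figure D2:**
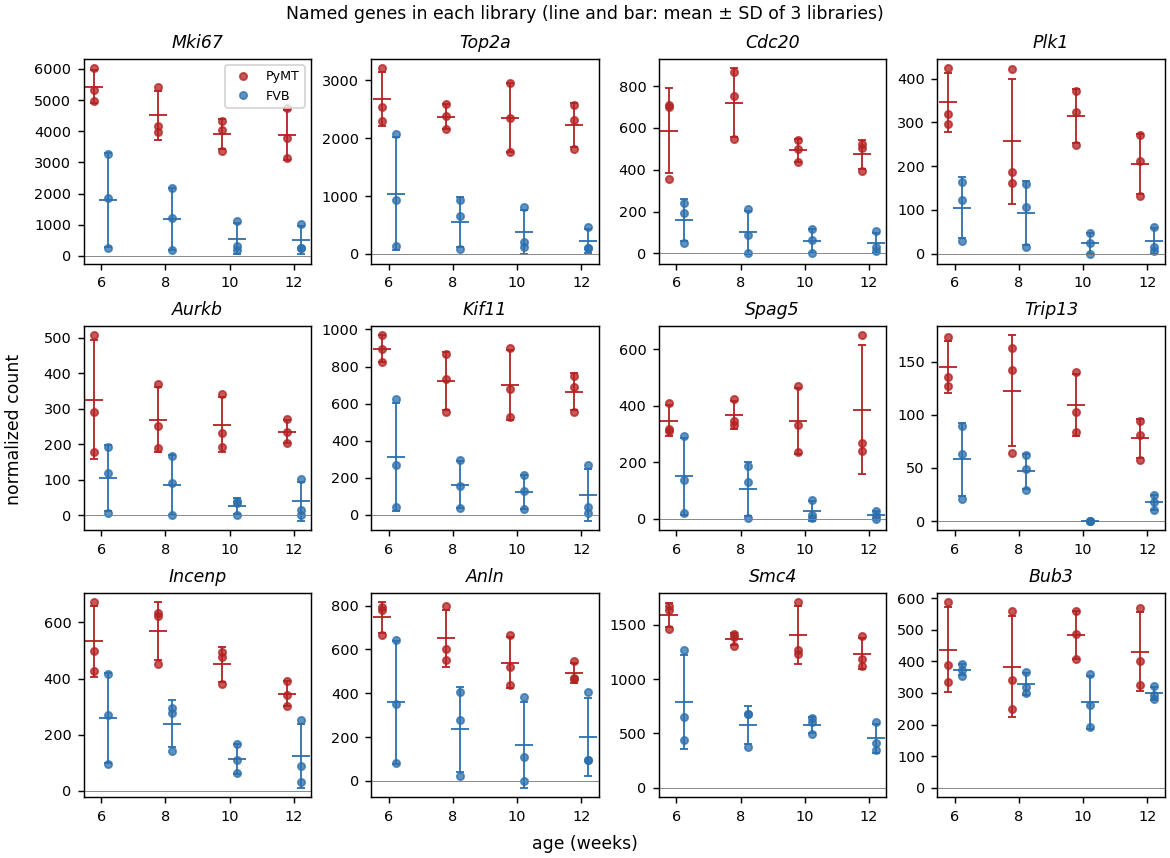
Normalized counts (y axis, from 0) of 12 of the genes at each age in weeks (x axis); each point is 1 library, and the line and bar give the mean ± SD of 3 libraries. Cdc20 shows no overlap of PyMT (354 to 867) with FVB (0 to 243), Bub3 overlaps widely (249 to 588 and 191 to 390), and Trip13 is at 0 in all 3 FVB libraries of week 10.

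The genes were then described by library. On the log2 scale the SD over 12 libraries had a median over the 44 genes of 0.40 in PyMT and 2.06 in FVB, and it was larger in FVB for 43 of the 44 genes, against 59.9% of all tested genes. Over all tested genes the median SD was 0.45 in PyMT and 0.52 in FVB. The median of the 44 genes in a library, in normalized counts per kb, ran from 61.2 to 122 in the PyMT libraries and from 2.09 to 86.7 in the FVB libraries. The lowest FVB libraries were week 10 replicate 3 (2.09), week 12 replicate 1 (4.77), week 8 replicate 1 (5.56), week 12 replicate 3 (6.66), week 10 replicate 1 (8.85) and week 6 replicate 1 (9.05). The highest was week 6 replicate 2 (86.7), which held the highest FVB value for 38 of the 44 genes and reached into the PyMT range. In each of the 4 weeks at least 1 FVB library had a median under 10 and at least 1 had a median over 30. The summed level of 6 luminal epithelial markers put the 3 FVB libraries of a week in the same order as the median of the 44 genes in all 4 weeks, and the PyMT libraries in 2 of 4 weeks. At week 8, for instance, the luminal sums of FVB replicates 1, 2 and 3 were 4284, 8307 and 13110 normalized counts, beside medians of 5.56, 30.4 and 48.3 per kb for the 44 genes. Summed basal and myoepithelial markers gave the same FVB order at weeks 6, 8 and 10, but not at week 12. At weeks 6, 10 and 12 the FVB library lowest for the 44 genes had the highest skeletal muscle sum (449200, 479500 and 257300). At week 8 the lowest library did not. The part of luminal or other cell content in this spread was not tested.

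**Figure D3:**
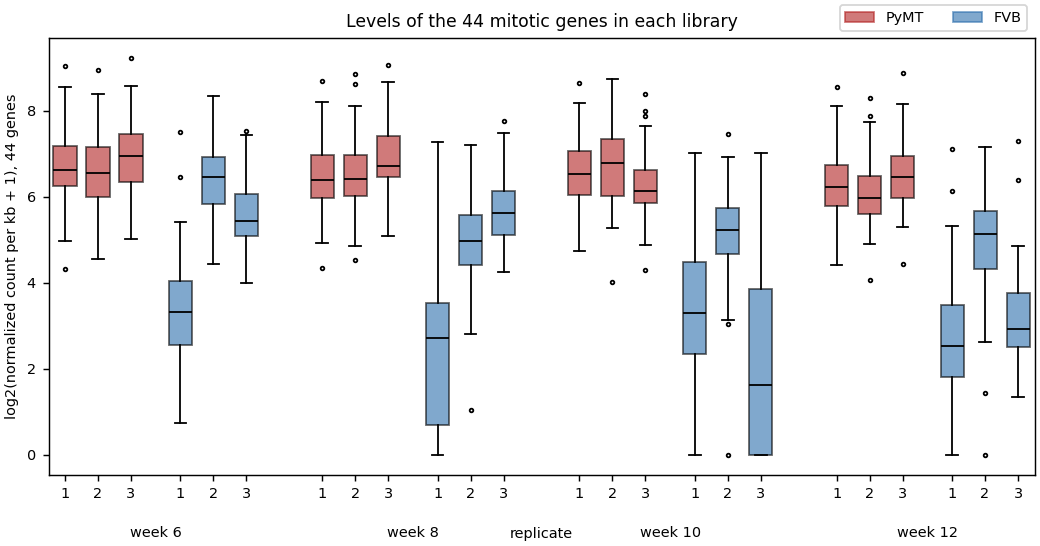
Log2 of the normalized count per kb plus 1 (y axis) of the 44 genes in each of the 24 libraries (x axis: replicate 1 to 3 within each week; box, quartiles with the median as a line). The PyMT boxes sit at a like height in all 12 libraries, with medians of 61.2 to 122 per kb, whereas the FVB medians run from 2.09 to 86.7.

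Markers of the cell types of the gland moved with the same comparison. Of 6 luminal epithelial markers, 4 (Krt8, Krt18, Epcam and Cdh1) were called higher in PyMT and 0 lower. Cldn4 (log2 difference 0.92, edgeR adjusted p = 0.00641) missed the fold change of 2. Krt19 went the other way (-0.59, edgeR adjusted p = 0.0354) and missed it too. The summed level of the list was 17800 to 34540 normalized counts in PyMT and 3851 to 18120 in FVB. All 6 adipocyte markers were lower in PyMT (831.7 to 13630 against 41300 to 115000), as were all 4 endothelial markers (556.9 to 1575 against 3430 to 6617) and all 5 skeletal muscle markers (0 to 27000 against 75.8 to 479500). Of 5 basal and myoepithelial markers 2, Krt17 and Myh11, were lower (989.7 to 5119 against 2523 to 8783). Of 4 macrophage markers 0 were called (1467 to 2908 against 1711 to 4159), and none of the 6 lymphocyte markers passed the filter on low counts (0 to 45.1 against 0 to 97.1). With the mean log2 level of the 6 luminal markers of the same library taken off each gene, a comparison chosen after the data were seen and run without a test, the median difference of the 44 genes went from 2.73 to 1.51 on the log2(normalized count + 1) scale, and 42 of the 44 stayed above 0. In edgeR's fit over the 4 weeks the median log2 difference was 2.00 for the 44 genes and 1.41 for the 6 luminal markers. The part of the cell type markers in the differences of the mitotic genes was otherwise not tested.

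The sequences before the start of these genes were read because genes of G2 and mitosis often share a promoter layout, in which CCAAT boxes stand upstream of a cell cycle genes homology region near the start. RefSeq windows on GRCm38.p6, from 250 bases before to 50 bases after the start, were found for 38 of the 44 genes, 40 windows in all, with overlapping pairs for genes with more than 1 start. Of these windows, 29 (72.5%) held TTTGAA, the core letters of that region, on either strand, against 17.9% of all 32851 windows, and 27 (67.5%) held CCAAT on either strand, against 37.4% of all windows. Both motifs stood in 24 windows (60%), against 6.95% of all windows, and 8 windows (20.0%) held neither of them nor an E2F-type match, against 50.5%. An E2F-type match (TTTGGCGC, TTTCCCGC, TTTGCCGC or TTTCGCGC on either strand) stood in 3 windows (7.50%), against 2.26%. None of these motifs contains another. A match is a description only, and binding was not measured.

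The 150 bases before the start are shown for 6 genes on the gene's own strand, with TTTGAA or its reverse complement TTCAAA, and CCAAT or its reverse complement ATTGG, in capitals. Mki67, Top2a, Cdc20 and Kif11 are shown as genes of high level, Bub3 as the gene of the smallest difference, and Trip13 as the gene of the largest fitted difference. They lie at chr7:135716380-135716529 (- strand), chr11:99024190-99024339 (- strand), chr4:118437344-118437493 (- strand), chr19:37376232-37376381 (+ strand), chr7:131560220-131560369 (+ strand) and chr13:73937768-73937917 (- strand) of GRCm38.p6.
Mki67: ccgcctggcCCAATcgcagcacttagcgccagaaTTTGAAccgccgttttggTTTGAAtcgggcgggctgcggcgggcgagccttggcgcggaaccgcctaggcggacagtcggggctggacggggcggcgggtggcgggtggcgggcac
Top2a: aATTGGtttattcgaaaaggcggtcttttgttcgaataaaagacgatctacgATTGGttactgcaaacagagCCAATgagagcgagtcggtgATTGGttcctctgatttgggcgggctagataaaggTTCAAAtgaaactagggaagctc
Cdc20: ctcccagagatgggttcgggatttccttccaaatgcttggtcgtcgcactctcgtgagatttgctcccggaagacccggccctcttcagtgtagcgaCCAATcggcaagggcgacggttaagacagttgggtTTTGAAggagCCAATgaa
Kif11: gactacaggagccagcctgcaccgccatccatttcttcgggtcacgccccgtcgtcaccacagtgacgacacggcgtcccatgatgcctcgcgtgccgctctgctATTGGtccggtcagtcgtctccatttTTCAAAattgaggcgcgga
Bub3: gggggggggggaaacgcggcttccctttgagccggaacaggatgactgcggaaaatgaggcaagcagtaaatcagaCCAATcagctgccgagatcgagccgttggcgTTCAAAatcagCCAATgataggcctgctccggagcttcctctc
Trip13: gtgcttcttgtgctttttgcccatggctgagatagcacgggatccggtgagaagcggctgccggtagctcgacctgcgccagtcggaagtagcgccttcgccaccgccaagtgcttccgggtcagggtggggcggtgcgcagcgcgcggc

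Cdc20 held TTTGAA 18 bases before the start between a pair of CCAAT boxes, and Kif11 held TTCAAA 19 bases and ATTGG 45 bases before it. Top2a held 4 CCAAT boxes and 1 TTCAAA within the stretch shown. Bub3, the gene with the smallest difference, held TTTGAA and CCAAT in each of its overlapping windows. Trip13, with the largest fitted difference, held none of the motifs in its whole window.

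Each week was compared on its own, 3 PyMT against 3 FVB mice, to see at which stage the differences could be called. All 44 genes had a higher fitted level in PyMT at each of the 4 weeks. With single libraries left out, signs were followed only for the genes named by rule, listed with the processing. Among those, Pttg1 at week 6 and Bub3 at weeks 6 and 8 turned to a lower level in PyMT. The median log2 difference of the 44 genes at weeks 6, 8, 10 and 12 was 1.13, 1.75, 2.43 and 2.46. These medians moved with single control libraries: week 6 was 0.69 without FVB replicate 1 and 1.94 without FVB replicate 2, and week 8 was 1.31 without FVB replicate 1 and 2.51 without FVB replicate 3. Week 10 was 3.63 and week 12 was 3.83 without FVB replicate 2 of that week. By the same rule 2 genes were called higher at week 6, when 3.58% of all tested genes were. The count was 6 at week 8 (background 3.57%), 17 at week 10 (background 4.83%) and 31 at week 12 (background 7.75%). None of the 44 was called lower in any week, whereas 6.46%, 6.37%, 9.09% and 13.0% of all tested genes were at weeks 6, 8, 10 and 12. Without adjustment 10, 24, 30 and 40 of the 44 genes had a p under 0.05, all of them higher in PyMT. Of the 14918 tested genes 3986, 4168, 4552 and 5960 had such a p in either direction. Those higher in PyMT numbered 1703, 1830, 2027 and 2800. Every PyMT library lay above every FVB library for 23, 40, 42 and 41 of the 44 genes in weeks 6, 8, 10 and 12, and for 16.2%, 18.4%, 18.9% and 21.5% of all tested genes.

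The counts of called genes moved with single libraries. With 1 of the 6 libraries left out in turn the count ranged between 0 and 6 for week 6, 0 and 19 for week 8, 4 and 32 for week 10, and 14 and 43 for week 12. At week 6 the count was 1 without PyMT replicate 1, 0 without PyMT replicate 3, 6 without FVB replicate 1 and 1 without FVB replicate 3. At week 8 it was 0 or 1 without any 1 of the 3 PyMT libraries and 0 without FVB replicate 2, but 19 without FVB replicate 1 and 11 without FVB replicate 3. These were the low and the high library of that control group. At week 10 it was 4, 5 and 7 without PyMT replicates 1, 2 and 3, 8 without FVB replicate 1 and 32 without FVB replicate 2. At week 12 it was 18, 17 and 14 without PyMT replicates 1, 2 and 3 and 16 without FVB replicate 3, whereas 43 of the 44 genes were called without FVB replicate 2, the library with the highest median level of its group.

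The 2 genes called at week 6 were Cdca8 and Aurka. Cdca8 had a log2 difference of 2.23 ± 0.46 (edgeR adjusted p = 0.0188) and Aurka 1.73 ± 0.45 (edgeR adjusted p = 0.0432). At week 8 the 6 called genes were Smc4, Diaph3, Ncapg, Ncaph, Incenp and the checkpoint kinase Ttk, 3 of them condensin subunits. Smc4, Ncapg and Diaph3 were called at 3 weeks, the largest number for any of the 44, and 12 genes, among them Aurkb, Birc5 and Bub3, were called at none. At week 12 all 7 genes of condensin, Top2a and Mki67 and 7 of the 9 kinesins and spindle genes were called, against 1 of 4 chromosomal passenger genes. The median log2 differences of these roles at week 12 were 2.04, 2.66 and 2.55 in that order. Their median standard errors were 0.47, 0.79 and 0.82, so fewer calls did not go with a smaller difference for the passenger genes.

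Mki67 shows the spread behind the weekly tests. At week 6 it had 5313, 4959 and 6016 normalized counts in PyMT and 263, 3283 and 1864 in FVB. The FVB values of week 12 were 253, 1027 and 254, and those of PyMT were 3779, 3144 and 4740. At weeks 8 and 10 the PyMT values were 4152, 3969 and 5415 and then 4035, 4321 and 3377, against 188, 1206 and 2169 and then 327, 1119 and 199 in FVB. The groups of Mki67 did not overlap in any week, and its log2 difference was 1.59 ± 0.69 (edgeR adjusted p = 0.188) at week 6 and 2.97 ± 0.56 (edgeR adjusted p = 0.00589) at week 12. Top2a had 1.36 ± 0.74 (edgeR adjusted p = 0.283) at week 6 and 3.38 ± 0.60 (edgeR adjusted p = 0.00461) at week 12.

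The leading genes by level per kb in the other roles are given in the same way, with replicates 1, 2 and 3 in order. Cdc20 had, in normalized counts, 700, 354 and 707 at week 6, 545, 867 and 752 at week 8, 544, 499 and 437 at week 10, and 503, 394 and 523 at week 12 in PyMT. In FVB Cdc20 had 49.8, 243 and 193 at week 6, 3.79, 86.1 and 211 at week 8, 63.2, 115 and 0 at week 10, and 32.3, 106 and 12.0 at week 12. Every PyMT value of Cdc20 lay above every FVB value, in any week, and its FVB values had the largest SDs at weeks 6 and 8 (100.2 and 104.5 normalized counts). Kif11 had, in normalized counts, 897, 823 and 969 at week 6, 736, 557 and 870 at week 8, 679, 900 and 526 at week 10, and 750, 556 and 688 at week 12 in PyMT. In FVB Kif11 had 44, 626 and 269 at week 6, 40.4, 156 and 294 at week 8, 33.1, 214 and 128 at week 10, and 12.1, 270 and 42.6 at week 12. Within each week the PyMT values of Kif11 lay above the FVB values, and its FVB values were far apart within each week. Anln had, in normalized counts, 667, 795 and 780 at week 6, 552, 601 and 800 at week 8, 518, 665 and 437 at week 10, and 466, 471 and 547 at week 12 in PyMT. In FVB Anln had 82.3, 642 and 352 at week 6, 21.4, 278 and 406 at week 8, 111, 383 and 1.56 at week 10, and 96.9, 406 and 96.2 at week 12. Within each week the PyMT values of Anln lay above its FVB values, though FVB week 6 replicate 2 lay above PyMT values of other ages. Bub3 had, in normalized counts, 335, 388 and 588 at week 6, 342, 248 and 560 at week 8, 486, 558 and 407 at week 10, and 400, 325 and 567 at week 12 in PyMT. In FVB Bub3 had 373, 390 and 355 at week 6, 318, 301 and 366 at week 8, 263, 359 and 191 at week 10, and 280, 292 and 323 at week 12. For Bub3 the groups overlapped at weeks 6 and 8 and were apart at weeks 10 and 12, and its FVB values were closer together than those of the other genes given here.

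Incenp had, in normalized counts, 428, 498 and 673 at week 6, 451, 624 and 635 at week 8, 478, 495 and 380 at week 10, and 342, 302 and 392 at week 12 in PyMT. In FVB Incenp had 95.0, 415 and 270 at week 6, 143, 297 and 279 at week 8, 110, 168 and 62.6 at week 10, and 32.3, 251 and 89.7 at week 12. For Incenp the groups were apart in each week. Cenpa had, in normalized counts, 414, 496 and 387 at week 6, 206, 345 and 334 at week 8, 302, 401 and 203 at week 10, and 259, 216 and 256 at week 12 in PyMT. In FVB Cenpa had 35.9, 371 and 187 at week 6, 25.2, 124 and 228 at week 8, 53.2, 125 and 43.8 at week 10, and 47.1, 125 and 29.5 at week 12. For Cenpa they were apart at weeks 6, 10 and 12 and overlapped at week 8.

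The linear trend over the weeks was tested within each genotype in a fit of all 24 samples. In PyMT 0 of the 44 genes were called, as were 0 of all tested genes. An unadjusted p under 0.05 was held by 0 of the 44 and by 1032 of the 14918 tested genes. Trip13 had the smallest p of the 44, with a slope of -0.28 (edgeR adjusted p = 0.860). The median slope was -0.16 on the log2 scale per 2 weeks, with 42 of the 44 genes below 0, and the mean of a gene at week 12 was a median of 0.708 times its mean at week 6. In FVB the slope was below 0 for all 44 genes with a median of -0.57 (-0.30 without FVB week 6 replicate 2 and -0.97 without FVB week 12 replicate 2). The mean at week 12 was a median of 0.335 times that at week 6. An unadjusted p under 0.05 was held by 21 of the 44 genes and by 782 of the 14918 tested genes. Of the 44, 1 was called, Trip13 (-1.39, standard error 0.21, adjusted p = 0.0474), the only called gene of all tested (0.00670%). Its 3 counts of 0 at week 10 enter that slope, and the call was lost in 19 of 31 alternatives, 17 of which left out 1 library. Those libraries lay in every group, and without them the adjusted p ran up to 0.166.

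The slopes of PyMT and FVB were compared directly. The slope of PyMT minus that of FVB was above 0 for 43 of the 44 genes, and 0 were called, as were 0 of all tested genes. The lowest adjusted p of the 44 was 0.511, for Trip13. An unadjusted p under 0.05 was held by 3 of the 44 and by 785 of the 14918 tested genes. For Mki67 the slope was -0.16 ± 0.24 in PyMT and -0.67 ± 0.24 in FVB, a difference of 0.50 ± 0.34 (edgeR adjusted p = 1). Mki67 means in FVB were 1803 ± 1511, 1188 ± 990, 548 ± 498 and 511 ± 447 normalized counts at weeks 6, 8, 10 and 12 (SD, n = 3), so that the SD was nearly as large as the mean at each week. In PyMT they were 5429 ± 538, 4512 ± 788, 3911 ± 484 and 3888 ± 803 (SD, n = 3).

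**Figure D4:**
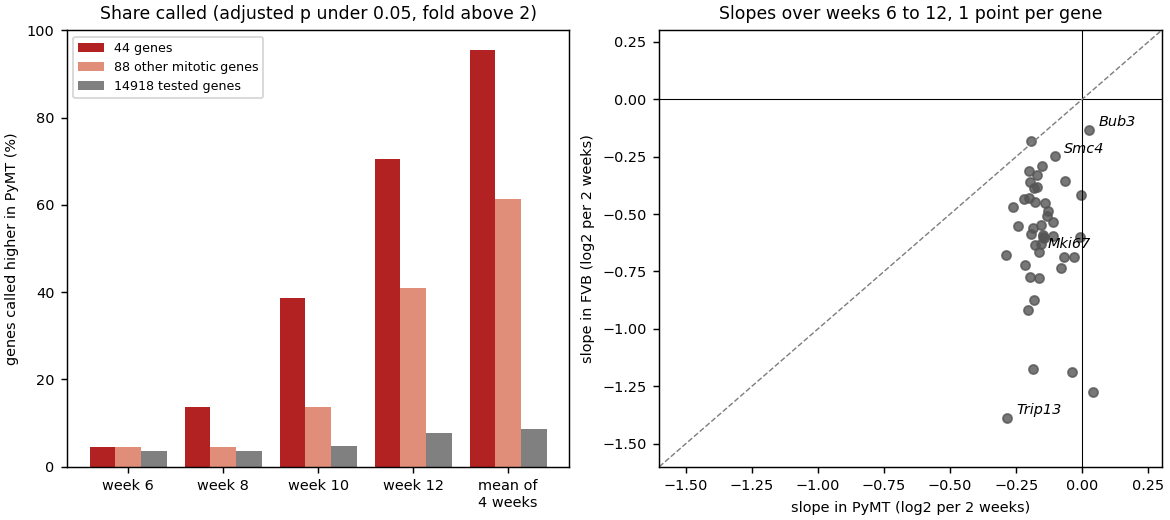
Left, the share in percent (y axis) of the 44 genes, of 88 other mitotic genes and of the 14918 tested genes called higher in PyMT at each week and over the 4 weeks (x axis). Right, the slope in FVB (y axis) against the slope in PyMT (x axis), both in log2 per 2 weeks, with 1 point per gene and the dashed line at equal slopes. All 44 points lie below 0 on the FVB axis, and all but 1 lie below the line of equal slopes.

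The step from week 8 to week 10 was tested as the change of the PyMT to FVB difference between the ages labelled adenoma/MIN and early carcinoma. The change was above 0 for 37 of the 44 genes with a median of 0.63 on the log2 scale. That median was -0.01 without FVB week 8 replicate 3 and 1.79 without FVB week 10 replicate 2. Of the 44, 1 was called, Trip13 (8.43, standard error 1.18, adjusted p = 0.0126), and it was the only called gene of all tested (0.00670%). Trip13 had 142, 63.8 and 162 normalized counts in PyMT against 49.2, 29.1 and 62.2 in FVB for week 8. At week 10 it had 141, 103 and 83.6 in PyMT and 0 in each of the 3 FVB libraries. With 3 counts in each of these libraries the change was 3.64 on the log2 scale, and with 3 times the peak count of each library, an alternative chosen after the data were seen, it was -0.33, so that its direction turned. The groups did not overlap at either age, and the PyMT mean went from 123 ± 52.1 in week 8 to 109 ± 29.0 in week 10 (SD, n = 3). The call was lost without the 2 libraries with the most zeros, FVB week 10 replicate 3 and PyMT week 8 replicate 2 (adjusted p = 0.0812), and with limma voom (6.14, adjusted p = 0.671), while over the alternatives the adjusted p ran from 0.000380 to 0.671.

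Plk1, Aurkb and Spag5 were looked at for the same step. The paper had placed them, from these same samples, among genes with a peak of change at this step. Their direction here is therefore no independent check. For week 8 Plk1 had 186, 162 and 421 normalized counts in PyMT against 13.9, 107 and 158 in FVB. For week 10 it had 324, 371 and 249 in PyMT against 23.7, 47.1 and 0 in FVB. The groups did not overlap at either age, and the change was 2.22 ± 1.21 (edgeR adjusted p = 1). It was 1.61 ± 1.67 (edgeR adjusted p = 1) for Aurkb and 1.87 ± 1.44 (edgeR adjusted p = 1) for Spag5. Their week 10 log2 differences were 3.74 ± 0.98 (edgeR adjusted p = 0.037) for Plk1, 3.30 ± 1.00 (edgeR adjusted p = 0.0614) for Aurkb and 3.70 ± 0.97 (edgeR adjusted p = 0.0383) for Spag5.

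The 44 genes were last set beside 88 other genes of mitosis, a list that holds none of the 44. Like the 44, it was chosen with earlier results of these data known. Over the 4 weeks 54 of these 88 genes (61.4%) were called higher in PyMT and 0 lower, against 8.70% and 17.5% of all tested genes. Their median log2 difference was 1.71, against 2.00 for the 44. Those called higher at weeks 6, 8, 10 and 12 numbered 4 (4.55%), 4 (4.55%), 12 (13.6%) and 36 (40.9%). Of all tested genes 3.58%, 3.57%, 4.83% and 7.75% were called higher at these weeks. The 4 genes of the mitotic kinase Cdk1 and its cyclins were all higher, from 2.34 for Ccnb2 to 3.77 for Ccnb1, as were 7 of 13 further centromere proteins. Of 5 cohesin subunits, which hold sister chromatids together from S phase on, 0 were called, and their log2 differences ran from 0.18 (Rad21) to 0.55 (Smc3). Smc3, Stag1, Stag2 and Smc1a missed only the fold change of 2, with edgeR adjusted p of 2.31e-06 (Stag1) to 0.0192 (Smc1a). Rad21 had an edgeR adjusted p of 0.0968. Of 6 core subunits of the anaphase-promoting complex, which works outside mitosis as well, 0 were called, from -0.17 (Anapc5) to 0.27 (Cdc16). Only Cdc16 among them had an adjusted p under 0.05 (edgeR adjusted p = 0.0244). The subgroups of this list were formed after its values had been seen, and the difference between the lists was not tested.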

How the data were processed

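Total RNA of snap-frozen mammary tissue was depleted of ribosomal RNA and made into directional libraries by the authors, who trimmed adapters, aligned reads with GSNAP to mm9 and counted them per gene with HTSeq. The deposited values are raw counts, not normalized, for 37991 Ensembl genes in 24 columns, 1 per mouse. The annotation and strand setting of the counting are not given in the sources used here, so counts of genes that share exon bases with a gene on the opposite strand (Cdc20, Cdca8, Kif4, Ncapg and Kif20a among the 44) are uncertain. Symbols and mm9 coordinates were taken from GENCODE M1.

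Genes that reached a CPM of 1 in 12 or more samples were tested with edgeR 4.0.16 (R 4.3.3) by its quasi-likelihood test, TMM scaling and Benjamini-Hochberg adjustment over all 14918 tested genes. Weeks were fitted separately, on 6 samples each. The average over weeks, the trends and the change from week 8 to week 10 came from 1 fit of the 8 groups. A weekly or average difference was called at an adjusted p under 0.05 with a fold change above 2, and a trend or change at an adjusted p under 0.05. Standard errors were derived from the fitted log2 value and its F statistic. Normalized counts were counts divided by the size factors of DESeq2 1.42.0. Alternatives were DESeq2's Wald test, limma 3.58.1 voom with sample quality weights, other scalings, no filter, a block, other models and leaving out libraries. The fits were tested on simulated data. Intervals were not computed for counts, and the floor of 3 counts covers counting error only.

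The members and lists were chosen with earlier results of these data known. Named genes were those with the highest level per kb in each role, the 5 largest and 5 smallest average differences, the smallest p of each test over weeks, and Plk1, Aurkb, Spag5, Trip13, Diaph3, Top2a and Mki67. Other genes were named where a count or group called for it, after their values had been seen.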

Additional observations from a re-analysis of the deposited data

Results flagged for a closer look

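Trip13 was singled out because its PyMT to FVB difference changed between ages by a test of the change itself. The change from week 8 to week 10 was 8.43 ± 1.18 on the log2 scale (± standard error, edgeR adjusted p = 0.0126), but all 3 FVB libraries of week 10 were at 0. With 3 counts put in each of them the change was 3.64, and with 3 times the peak count of each library it was -0.33, so that the direction turned. Both values were given without a test, and the alternatives were chosen after the data were seen. The check for a single library far from its group was not run, since groups of 3 are not tested.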

How the results depend on the processing

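Over the 4 weeks 41 to 43 of the 44 genes were called with any 1 library left out, and 42 to 44 in all other alternatives. The weekly counts moved more. At week 6, where 2 genes were called, DESeq2 called 7, no filter 4, voom 4 and 1 fit of all 24 samples 0. At week 8, with 6 called, DESeq2 called 20, no filter 20, voom 19 and the fit with the replicate number as a block 11. At week 10, with 17 called, voom called 35. Leaving out 1 library gave 0 to 6 genes at week 6, 0 to 19 at week 8, 4 to 32 at week 10 and 14 to 43 at week 12. The FVB trend, with 1 gene called, had 0 with the block or with RLE size factors and 0 to 2 with 1 library left out. The change from week 8 to week 10, with 1 called, had 0 with voom and 0 without the 2 libraries with the most zeros. The causes were not tested. The change of Trip13 from week 8 to week 10 turned to -0.33 with its FVB zeros at 3 times the peak count of each library, an alternative chosen after the data were seen. Single-gene values were followed through the alternatives only for the genes named by rule, not for all 44. Signs turned in 4 of these single-gene results when 1 library was left out: Pttg1 at week 6 ran from -0.10 to 0.67 (-0.10 without FVB replicate 1, -0.04 without PyMT replicate 3), and without PyMT replicate 3 of the week Bub3 was -0.013 at week 6 (range to 0.43) and -0.16 at week 8 (range to 0.50). Of the other single-gene values, 1713 kept their side of the threshold, 88 gained the call and 102 lost it. Same-numbered PyMT and FVB samples had correlated deviations of -0.04 to 0.20, with 4 of 12 pairs over 0.1. No label used here ties a number to a litter or batch, so the pairs were not taken as matched, and the block called 2, 11, 21 and 35 genes at the 4 weeks and 43 over them. Of the PyMT samples, 8 of 12 correlated best with their own number, a hint of pairing from the data. The paper also reports a slight contribution of litter to the variation among these samples, without saying which samples shared a litter. The median raw count of the 44 genes was 79 in FVB and 395 in PyMT libraries, so counting error weighed more on the FVB values.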

Other observations

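Each gene was set against the luminal markers of the same library, a comparison chosen after the data were seen and given without a test. The median difference of the 44 genes was then 0.74, 1.01, 1.82 and 2.08 at weeks 6, 8, 10 and 12. These values are on the log2(normalized count + 1) scale. On that scale the median before subtraction was larger than in edgeR's fit (2.73 against 2.00 over the 4 weeks). Bub3 was -0.79 over the 4 weeks on that scale, and Cdc20 was 2.39. The 6 luminal markers themselves had a median edgeR log2 difference of 1.21, 1.48, 1.76 and 1.30 at the 4 weeks. That of the 44 genes was 1.13, 1.75, 2.43 and 2.46, so at week 6 it was no higher than that of the markers. Among the luminal markers Krt19 had -0.82, -0.32, -8.86e-05 and -1.18, and Cldn4 had -0.15 at week 12.

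Of 3 further condensin II genes among the other mitotic genes, 1 was called higher in PyMT over the 4 weeks, with log2 differences from 0.22 to 1.14. All 5 condensin I genes were called, among them the core subunits Smc2 and Smc4, which both condensins share. Ncaph2 of condensin II (0.56, edgeR adjusted p = 8.21e-05) missed only the fold change of 2. Among the promoter windows of the other mitotic genes, 38.2% held TTTGAA, 64.5% held CCAAT and 27.6% held both, against 72.5%, 67.5% and 60% for the 44 genes. The difference between these lists was not tested.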
